A study of Mus musculus with 6 samples.

Results

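The transcripts of 10 nuclear receptor genes were followed in intestinal stem cells of the mouse: Nr1h4 (the bile acid receptor FXR), Nr1h3 (the oxysterol receptor LXRα), Nr1i2 (the xenobiotic receptor PXR), Nr1i3 (the xenobiotic receptor CAR), Vdr (the vitamin D receptor), Rxra (the retinoid X receptor α), Rara (the retinoic acid receptor α), Nr5a2 (LRH-1), Nr3c1 (the glucocorticoid receptor) and Esrra (the estrogen-related receptor α). They are receptors for bile acids, vitamins and steroids or close relatives of these, and were chosen with earlier results of these data known. All 10 were found among the 53379 genes counted. The RNA came from cells with bright green fluorescence of the Lgr5-EGFP reporter, which had been sorted out of proximal small-intestinal crypts. The 3 control libraries were from C57BL/6 mice that carried the Lgr5-EGFP-IRES-CreERT2 and Rosa-tdTomato alleles. The 3 libraries labelled Klf5-KO were from mice of the same strain with these alleles and with floxed Klf5 (Klf5 fl/fl), a gene for a Krüppel-like transcription factor of intestinal crypts. Every mouse had received 1 mg of tamoxifen per injection on 5 days. Cre was expressed from the Lgr5 locus, so the controls carried active Cre as well, and deletion was aimed at Lgr5-expressing cells and inherited by their progeny. The labels do not say that the libraries of a group came from separate mice, and a p-value here reflects only how these libraries spread, part of which may be technical. By Y-linked counts, control replicate 1 (11462) and Klf5-KO replicate 3 (14064) were male, and by Xist the others were female. Each group thus mixed the sexes and held more than 1 mouse.

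Nuclear receptors are transcription factors, most of them switched by small fat-soluble molecules. FXR, LXR, PXR, CAR, the vitamin D receptor and the retinoic acid receptors bind DNA as pairs with a retinoid X receptor, whereas the glucocorticoid receptor acts mainly as a pair of its own and LRH-1 binds as a single molecule. In the intestine these receptors are known for sensing bile acids, sterols, foreign compounds, vitamin D and vitamin A, and for adjusting uptake, export and metabolism in response. Coactivators and corepressors, recruited by the receptor in its bound or unbound state, carry the effect to the gene.

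Each library held 61563625 to 77666540 counts, and 19339 genes passed the filter on low counts. Klf5 itself went against the labels: its level was 480, 512 and 547 CPM (read counts scaled to a common library size) in control and 880, 918 and 877 CPM in those labelled Klf5-KO, which is 513 ± 33.1 against 892 ± 23.1 CPM (SD, n = 3 each) and a log2 fold change of 0.80 (SE 0.10, adjusted p = 6.3e-04, edgeR quasi-likelihood F test). Counts summed over all exons cannot tell floxed exons from others, and the labels do not name the exons removed. Below, Klf5-KO libraries stands for the libraries so labelled, and every direction rests on those labels. Over all tested genes, 13.3% were higher and 12.5% lower by the same test at an adjusted p under 0.05, against which the marker counts here are to be read. Of the 8 markers of crypt base stem cells, 6 were lower, and the summed level of the 8 was 8531 to 11772 CPM in control and 4309 to 5737 CPM in Klf5-KO libraries. Of 13 enterocyte markers, 8 were higher and 0 lower in edgeR (0 also at an unadjusted p under 0.05), with sums of 972 to 1326 against 1775 to 3076 CPM. Of 7 goblet cell markers 3 were lower, with sums of 2393 to 2667 CPM in control and 1172 to 1521 CPM in Klf5-KO libraries, and of 8 enteroendocrine markers 6 were lower, with sums of 150 to 298 against 84.8 to 96.2 CPM. Of 6 tested tuft cell markers 3 were higher, with sums over the list of 72.5 to 92.9 against 97.6 to 182 CPM. Paneth cell markers summed to 1468 and 1735 CPM in control replicates 1 and 2 and to 16828 CPM in control replicate 3, which stood apart, and to 7723 to 9693 CPM in the Klf5-KO libraries. Markers of T cells summed to at most 20.6 CPM, of macrophages to at most 33.8 CPM and of stroma to at most 3.32 CPM in any library. In such bulk samples a change in the share of a cell type and a change in transcript per cell cannot be told apart.

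Of the 10 receptors, 2 were called higher (Nr1h4 and Esrra) and 3 lower (Rxra, Rara and Nr3c1) in the libraries labelled Klf5-KO, and 5 were not called (Nr1h3, Nr1i2, Nr1i3, Vdr and Nr5a2). A call is an adjusted p under 0.05 over all 19339 genes. Across all tested genes 25.8% were called in either direction, 13.3% higher and 12.5% lower. The CPM ranges of the groups did not overlap for 6 of the 10 receptors, against 43.2% of all tested genes. The median log2 fold change of the receptors was −0.11, against −0.01 over all tested genes.

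**Figure D1:**
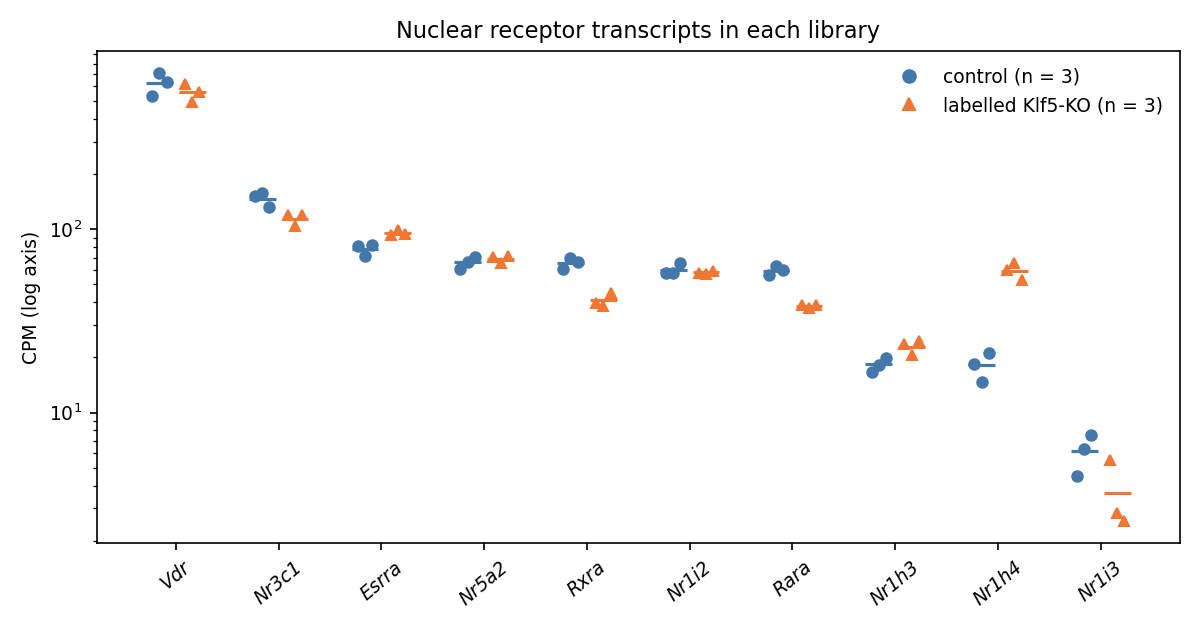
CPM (log axis) of the 10 receptor genes in each library, ordered by the control mean; circles are the 3 control libraries, triangles the 3 libraries labelled Klf5-KO and short lines the group means. Vdr is highest in both groups, and the 3 Klf5-KO values of Nr1h4, at 52.6 to 65.3 CPM, all lie above its control values of 14.8 to 21.0 CPM.

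Levels of different genes were compared per length, as RPKM (CPM per kilobase of exon). Vdr was by far the most abundant of the receptors in control libraries, at 111 ± 15.4 RPKM (SD, n = 3), and remained first in the Klf5-KO libraries at 98.6 ± 11.2 RPKM. Esrra came next at 30.8 ± 2.24 RPKM in control, then Nr1i2 at 23.6 ± 1.66, Nr3c1 at 19.8 ± 1.72 and Rara at 13.6 ± 0.756 RPKM, each with a range that did not overlap that of its neighbour. Rxra, at 12 ± 0.785 RPKM, and Nr5a2, at 11.2 ± 0.858 RPKM, did not differ beyond their spread, and neither did Nr1h4, at 7.85 ± 1.37, and Nr1h3, at 7.27 ± 0.650 RPKM. Nr1i3 was last at 1.39 ± 0.346 RPKM. In the Klf5-KO libraries Nr1h4 moved from place 8 to place 3 in this order, at 25.7 ± 2.77 RPKM, while Rara moved from place 5 to 8 and Rxra from 6 to 9.

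The 250 bases before the RefSeq start sites of the receptors were read for a motif of the Krüppel-like and SP factor family and for a nuclear receptor hexamer, since Klf5 is the gene targeted and the receptors move in different directions. The promoter table (RefSeq, GRCm38.p6, the assembly of mm10) held 9 of the 10 receptors with 15 start sites. It lacked Nr3c1, one of the receptors called lower. The letters GGGNGNGG, on either strand and with overlapping matches counted separately, occurred in 45.9% of all 32851 windows of this length and in 11 of the 15 receptor windows. The windows of the first starts of Rara overlap, as do those of Nr1h3, so the 15 are not separate stretches. The hexamer AGGTCA, on either strand, occurred in 14.0% of all windows and in 3 of the 15: the window of Nr1h4, the second start of Rxra and the first of Nr5a2. Its matches are not marked below. Printed here are the windows of called receptors, 5′ to 3′ on the strand of the gene, with the matches to GGGNGNGG or its reverse complement in capitals: the first start of Rxra (chr2:27676951-27677200, plus strand, 8 matches, 81.2% G and C), the first start of Rara (chr11:98937446-98937695, plus strand, 3 matches, 65.2% G and C), Esrra (chr19:6921809-6922058, minus strand, 3 matches, 68.4% G and C) and Nr1h4 (chr10:89506659-89506908, minus strand, 0 matches, 44.4% G and C). They are shown because these genes carry the changes described next: the first pair fell, the last pair rose.
Rxra: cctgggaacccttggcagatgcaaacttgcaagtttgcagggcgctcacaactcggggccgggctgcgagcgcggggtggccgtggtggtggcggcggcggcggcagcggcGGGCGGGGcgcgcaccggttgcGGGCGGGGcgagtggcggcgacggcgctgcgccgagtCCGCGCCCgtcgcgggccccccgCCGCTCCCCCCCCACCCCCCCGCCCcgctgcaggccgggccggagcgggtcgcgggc
Rara: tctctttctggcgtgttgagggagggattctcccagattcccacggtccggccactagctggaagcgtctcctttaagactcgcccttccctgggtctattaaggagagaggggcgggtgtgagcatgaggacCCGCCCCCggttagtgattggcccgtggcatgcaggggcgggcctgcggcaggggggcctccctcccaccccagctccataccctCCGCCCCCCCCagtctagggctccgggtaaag
Esrra: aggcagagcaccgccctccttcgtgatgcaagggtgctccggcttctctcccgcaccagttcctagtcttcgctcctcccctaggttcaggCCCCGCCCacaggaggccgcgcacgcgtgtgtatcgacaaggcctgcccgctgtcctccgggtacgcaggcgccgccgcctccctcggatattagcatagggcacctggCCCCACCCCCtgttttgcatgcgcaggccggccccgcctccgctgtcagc
Nr1h4: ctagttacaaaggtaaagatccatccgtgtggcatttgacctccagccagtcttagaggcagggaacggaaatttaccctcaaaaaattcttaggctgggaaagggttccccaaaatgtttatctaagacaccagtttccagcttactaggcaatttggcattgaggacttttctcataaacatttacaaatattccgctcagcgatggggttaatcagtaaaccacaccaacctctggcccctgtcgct

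The printed windows of Rxra and Rara, which fell, and of Esrra, which rose, held matches among many G and C. Of the starts not printed, that of Rxra held 1 match at 55.2% G and C, and those of Rara held 3, 0 and 3. The only window of Nr1h4, which rose, held the letters GGGNGNGG nowhere and the hexamer AGGTCA at 1 place. That window lies inside the gene as annotated for the counts (89454234 to 89533585, minus strand), so the bases before the outer end of Nr1h4 were not read. The printed windows of Rxra and Rara also lie inside the annotated genes. The median window of the whole table was 52.4% G and C. Among receptors that were not called, the window of Vdr held 5 matches, that of Nr1i3 5 and that of Nr1i2 1, while Nr5a2 held 0 at one start and 4 at another and Nr1h3 0 and 2. The letters thus occurred beside called and uncalled receptors, and beside higher and lower ones. A match describes letters in a window and not a bound site, and the start used in these cells was not measured.

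Nr1h4 encodes FXR, which senses bile acids and in the intestine induces genes for their transport and a hormone that restrains their synthesis in the liver. The gene (ENSMUSG00000047638.15) lies on the minus strand of chromosome 10 at 89454234 to 89533585 (mm10). Its level was 18.4, 14.8 and 21.0 CPM in the control libraries and 59.8, 65.3 and 52.6 CPM in the Klf5-KO ones. All Klf5-KO values were above all control values, and the lowest of them was over 2 times the highest control. The means were 18.1 ± 3.16 and 59.2 ± 6.38 CPM (SD, n = 3 each), a 3.28-fold higher level with a log2 fold change of 1.71 (SE 0.14, adjusted p = 6.0e-05). Of the 10 receptors it had the largest change, and the call held in all 16 other analysis settings, with log2 fold changes of 1.58 to 1.84.

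Nr1h3 encodes LXRα, a sensor of oxidised cholesterol that induces sterol export. The gene (ENSMUSG00000002108.10, chromosome 2, 91184061 to 91202834, minus strand) was at 16.7, 18.2 and 20.0 CPM in control and at 23.6, 20.6 and 24.4 CPM in Klf5-KO libraries. The groups did not overlap, but the difference of 0.32 on the log2 scale (SE 0.11) did not pass the threshold (adjusted p = 0.056). It passed without control replicate 3 (0.39, adjusted p = 0.042) and without Klf5-KO replicate 2 (0.41, adjusted p = 0.049). On the same strand, 1.4% of its exon bases are shared with another gene. Its close relative Nr1h2, which encodes LXRβ, had a log2 fold change of 0.09 (SE 0.08, adjusted p = 0.42).

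Nr1i2 and Nr1i3 encode PXR and CAR, which respond to drugs and other foreign compounds and to some bile acids and steroids, and induce enzymes and pumps that clear them. Nr1i2 (ENSMUSG00000022809.4, chromosome 16, 38248323 to 38294824, minus strand) was at 57.6, 58.0 and 65.2 CPM in control and at 58.0, 56.9 and 59.4 CPM in Klf5-KO libraries. The ranges overlapped, with a log2 difference of −0.05 (SE 0.08, adjusted p = 0.68). Nr1i3 (ENSMUSG00000005677.14, chromosome 1, 171213970 to 171220701, plus strand) was at 4.53, 6.37 and 7.57 CPM in control and at 5.49, 2.84 and 2.57 CPM in Klf5-KO libraries. Klf5-KO replicate 1 lay among the controls and the other two lay below them. On the log2 scale the difference was −0.76 (SE 0.30, adjusted p = 0.096). The gene passed the threshold with DESeq2 (−0.76, adjusted p = 0.024), with no filter on low counts (−0.74, adjusted p = 0.0086) and without Klf5-KO replicate 1 (−1.18, adjusted p = 0.017).

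Vdr encodes the receptor for the active form of vitamin D, which induces genes of calcium uptake in the duodenum. The gene (ENSMUSG00000022479.15, chromosome 15, 97854425 to 97910630, minus strand) was at 536, 710 and 634 CPM in control and at 619, 492 and 559 CPM in Klf5-KO libraries. The ranges overlapped, and the log2 fold change of −0.17 (SE 0.13) did not pass the threshold (adjusted p = 0.38). Vdr alone made up 14.99%, 17.7% and 16.03% of the summed RPKM of all 49 nuclear receptor genes in control libraries, and 15.4%, 14.0% and 14.4% in Klf5-KO libraries.

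Rxra encodes the retinoid X receptor α, the common partner of many of the other receptors. The gene (ENSMUSG00000015846.14, chromosome 2, 27676440 to 27762957, plus strand) was at 60.9, 69.3 and 66.4 CPM in control and at 39.7, 38.4 and 45.0 CPM in Klf5-KO libraries. Every Klf5-KO value lay below every control value. The mean fell from 65.5 ± 4.29 to 41.0 ± 3.50 CPM (SD, n = 3 each), with a log2 fold change of −0.68 (SE 0.09, adjusted p = 0.0011). Rara encodes the retinoic acid receptor α, through which the acid form of vitamin A acts. This gene (ENSMUSG00000037992.16, chromosome 11, 98927818 to 98974942, plus strand) was at 56.1, 62.7 and 59.7 CPM in control and at 38.4, 37.2 and 38.7 CPM in Klf5-KO libraries, again without overlap. Its mean fell from 59.5 ± 3.30 to 38.1 ± 0.825 CPM, with a log2 fold change of −0.64 (SE 0.08, adjusted p = 6.6e-04). Both calls held in all 16 other settings, over which the log2 fold change ran from −0.74 to −0.61 for Rxra and from −0.69 to −0.61 for Rara.

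Nr5a2 encodes LRH-1, a receptor of the crypt known for driving steroid synthesis and cell cycle genes there. The gene (ENSMUSG00000026398.14, chromosome 1, 136842571 to 136960448, minus strand) was at 60.8, 66.3 and 70.9 CPM in control and at 70.8, 65.0 and 71.1 CPM in Klf5-KO libraries. The ranges overlapped, with a log2 fold change of 0.06 (SE 0.09, adjusted p = 0.63).

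Nr3c1 encodes the glucocorticoid receptor, which is held by chaperones in the cytoplasm until a glucocorticoid binds it. The gene (ENSMUSG00000024431.14, chromosome 18, 39410545 to 39491301, minus strand) was at 151, 157 and 132 CPM in control and at 119, 104 and 120 CPM in Klf5-KO libraries, with no overlap. The mean fell from 147 ± 12.8 to 114 ± 9.03 CPM (SD, n = 3 each), with a log2 fold change of −0.36 (SE 0.10, adjusted p = 0.024). The call was lost when any library other than control replicate 3 was left out: the adjusted p was 0.069 without control replicate 1, 0.075 without control replicate 2, and 0.057, 0.096 and 0.057 without Klf5-KO replicates 1, 2 and 3.

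Esrra encodes the estrogen-related receptor α, which has no known steroid hormone and drives genes of mitochondrial energy metabolism together with the coactivators of the PGC-1 family. The gene (ENSMUSG00000024955.13, chromosome 19, 6910977 to 6921813, minus strand) was at 81.1, 71.8 and 82.1 CPM in control and at 92.5, 99.3 and 94.5 CPM in Klf5-KO libraries. The groups did not overlap, and the mean rose from 78.3 ± 5.68 to 95.5 ± 3.51 CPM (SD, n = 3 each), with a log2 fold change of 0.29 (SE 0.09, adjusted p = 0.036). A microRNA gene shares 3.6% of its exon bases on the same strand. The call was lost in 8 of the 16 other settings. The adjusted p was 0.063 without control replicate 1, 0.116 without control replicate 2, and 0.067, 0.078 and 0.094 without Klf5-KO replicates 1, 2 and 3; it was 0.0501 with upper-quartile scaling and 0.065 with sex as a covariate.

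**Figure D2:**
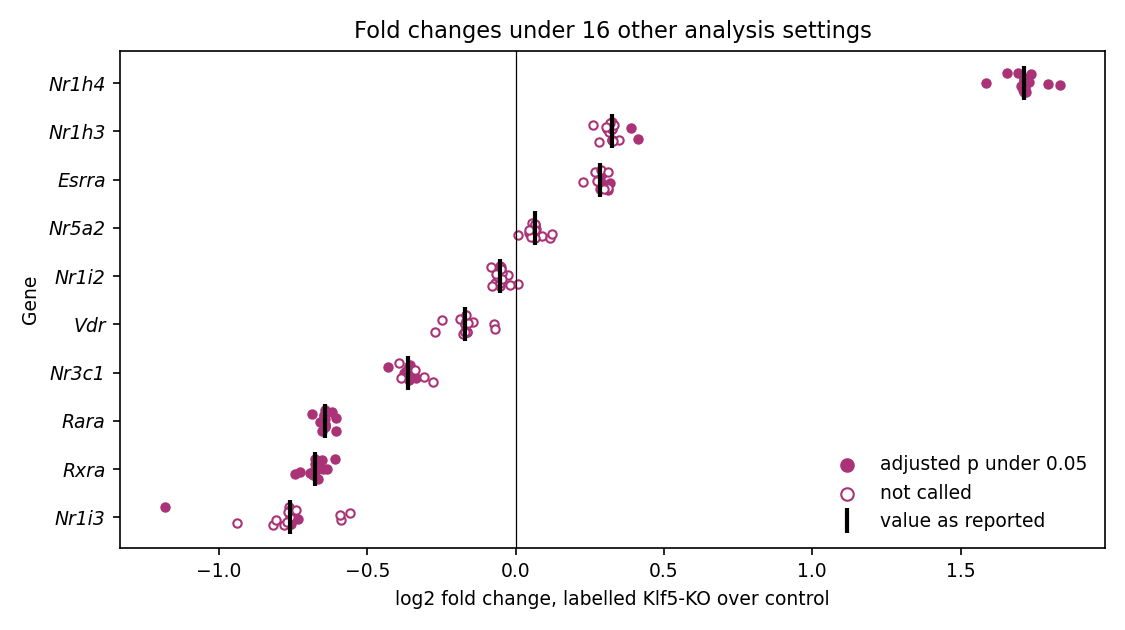
Log2 fold change of each receptor (libraries labelled Klf5-KO over control) in the 16 other analysis settings; filled points are called at an adjusted p under 0.05, open points are not, and the black tick is the value given in the text. Nr1h4, Rxra and Rara are filled throughout, whereas Nr3c1 is filled in 11 and Esrra in 8 of the 16 settings.

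Several of the receptors share their ligands or partners with a close relative, so the share of each receptor within its subfamily was taken from RPKM. Rxra made up 39.8%, 42.3% and 38.4% of the summed RPKM of Rxra, Rxrb and Rxrg in control and 30.7%, 29.2% and 32.5% in Klf5-KO libraries. All Klf5-KO shares were below all control shares (exact two-sided permutation test, p = 0.1, the smallest that 3 against 3 libraries allow). The partner gene Rxrb was at 62.4, 64.1 and 72.1 CPM in control and at 60.6, 62.8 and 63.2 CPM in Klf5-KO libraries, with a log2 fold change of −0.09 (SE 0.09, adjusted p = 0.48), and Rxrg had 0 counts in all 6 libraries. Nr3c1 made up 78.4%, 81.3% and 73.8% of the sum of Nr3c1 and Nr3c2, the gene of the mineralocorticoid receptor, in control and 61.6%, 57.8% and 66.2% in Klf5-KO libraries, again without overlap (exact two-sided permutation test, p = 0.1). Nr3c2 rose from 36.3, 31.4 and 40.9 CPM to 64.6, 66.0 and 53.4 CPM, with a log2 fold change of 0.76 (SE 0.12, adjusted p = 0.0022).

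Within the retinoic acid receptors, Rara held 95.9%, 94.7% and 94.1% of the summed RPKM in control and 93.9%, 93.9% and 89.8% in Klf5-KO libraries (exact two-sided permutation test, p = 0.1). Nr1h3 held 21.9%, 25.2% and 26.2% of the LXR sum in control and 27.9%, 26.0% and 28.5% in Klf5-KO libraries, with overlap (exact two-sided permutation test, p = 0.2). The share of Esrra among the estrogen-related receptors was 70.1% ± 2.35 in control and 69.5% ± 2.51 in Klf5-KO libraries (SD, n = 3 each; exact two-sided permutation test, p = 1.0). Together the 10 receptors made up 34.7%, 35.4% and 34.9% of all nuclear receptor RPKM in control and 35.1%, 36.4% and 34.6% in Klf5-KO libraries (exact two-sided permutation test, p = 0.7), while the part of Nr1h4 in that sum went from 1.16% ± 0.222 to 3.85% ± 0.642. These 16 shares were each tested alone, and with a smallest p of 0.1 none could pass an adjustment over them.

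**Figure D3:**
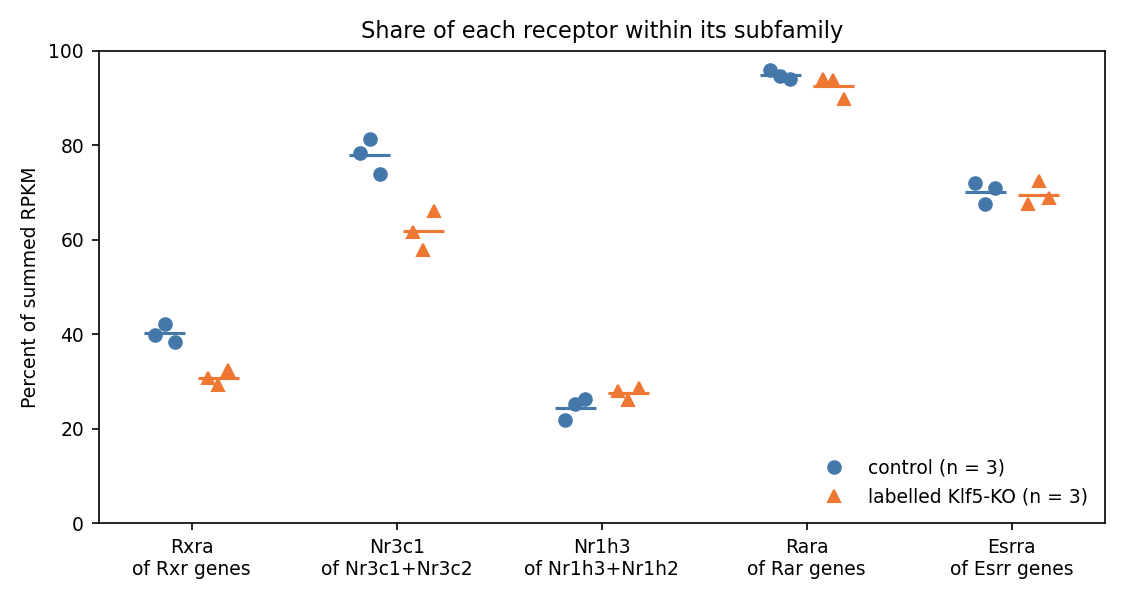
Percent of the summed RPKM of a subfamily that comes from the named receptor, in each control library (circles) and each library labelled Klf5-KO (triangles), with lines at the group means. The groups separate for Rxra (38.4 to 42.3% against 29.2 to 32.5%) and Nr3c1 (73.8 to 81.3% against 57.8 to 66.2%). They separate narrowly for Rara (94.1 to 95.9% against 89.8 to 93.9%) and overlap for Nr1h3 and Esrra.

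Of the 39 other nuclear receptor genes 31 were tested, 7 were called higher and 1 lower, with a median log2 fold change of 0.10. The share called, 25.8%, was that over all tested genes (25.8%). The median turned to −0.09 without control replicate 1 and −0.01 without Klf5-KO replicate 2, and was 0.21 without control replicate 2. The gene that fell was Hnf4a, the gene of a central transcription factor of enterocytes and liver cells, at 796, 927 and 741 CPM in control and 454, 379 and 492 CPM in Klf5-KO libraries (log2 fold change −0.89, SE 0.13, adjusted p = 0.0015). Its relative Hnf4g moved the other way, from 51.4, 51.1 and 64.9 CPM to 164, 131 and 152 CPM (1.42, SE 0.12, adjusted p = 8.5e-05). Nr0b2 encodes SHP, a receptor without a DNA-binding domain that represses other nuclear receptors and is a known target of FXR. It rose from 0.77, 1.45 and 1.36 CPM to 4.63, 4.60 and 5.99 CPM (2.09, SE 0.26, adjusted p = 5.8e-04). The remaining ones called higher were Nr3c2, Thrb, Pparg, Esrrg and Nr4a1, and the count of 7 became 4 without Klf5-KO replicate 1. The number called lower became 3 without Klf5-KO replicate 3 and 2 without control replicate 1.

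**Figure D4:**
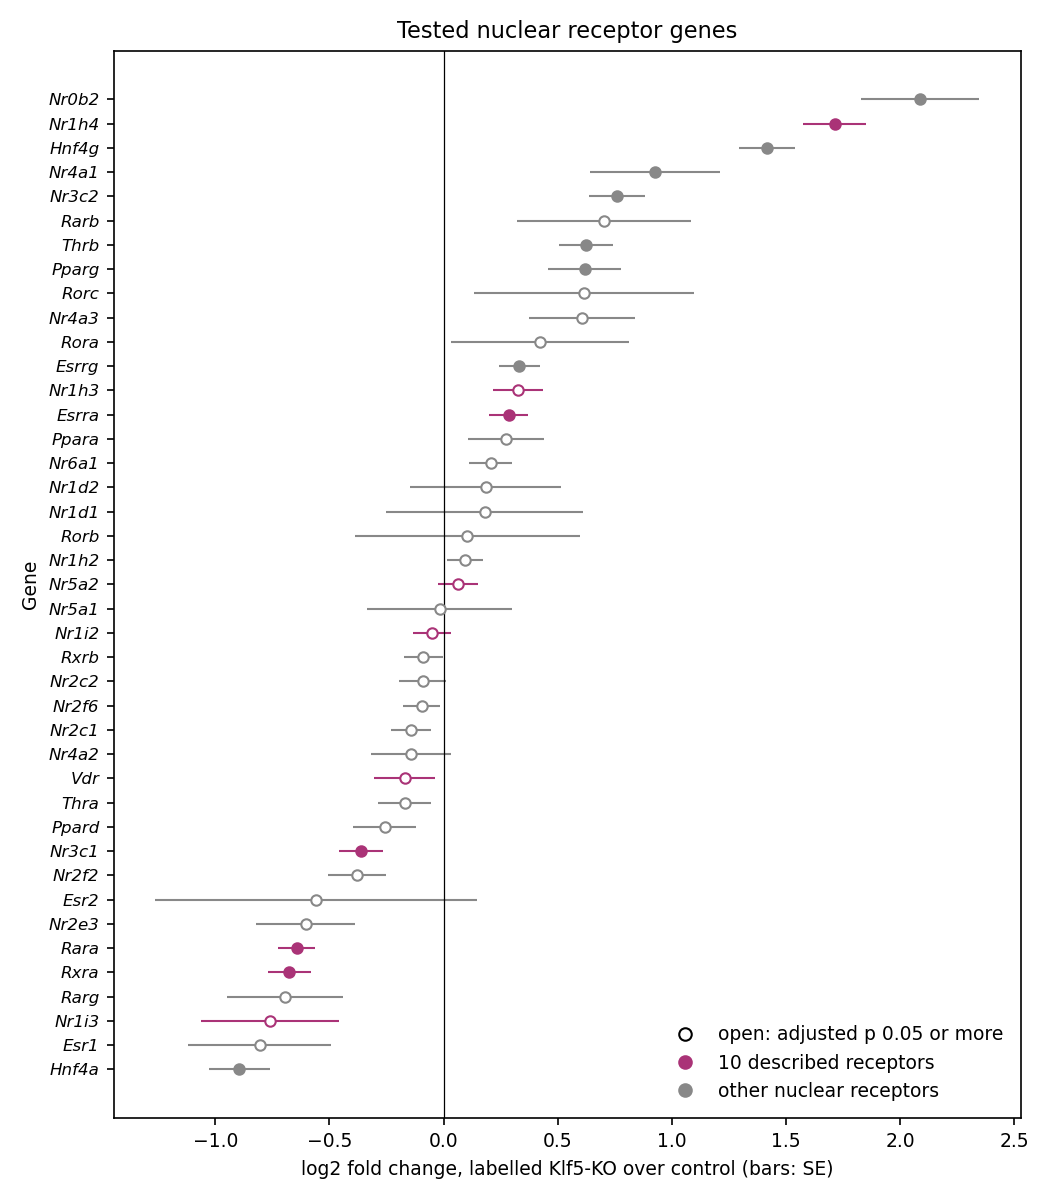
Log2 fold change (libraries labelled Klf5-KO over control) with its SE for the 41 tested nuclear receptor genes; the 10 receptors described here are in purple, the others in grey, and open points have an adjusted p of 0.05 or more. Nr1h4, at 1.71, lies near the top with Nr0b2 (2.09) and Hnf4g (1.42), and Rxra, at −0.68, and Rara, at −0.64, lie near the bottom.

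Of 15 coactivator genes 4 were higher and 1 lower (33.3% called, against 25.8% of all tested genes), with a median of −0.01 on the log2 scale that lay between −0.04 and 0.02 in the other settings. Ppargc1a, which encodes PGC-1α, a coactivator of estrogen-related receptors and many others, rose from 8.58, 9.93 and 12.8 CPM to 43.9, 42.8 and 38.4 CPM (2.00, SE 0.15, adjusted p = 3.8e-05). Ppargc1b, which encodes PGC-1β, fell from 63.8, 68.6 and 71.6 CPM to 50.7, 53.9 and 48.2 CPM (−0.42, SE 0.09, adjusted p = 0.0073). Ncoa7, another coactivator gene, rose from 14.6, 11.3 and 12.7 CPM to 49.97, 37.1 and 44.6 CPM (1.77, SE 0.14, adjusted p = 5.0e-05). Without control replicate 3, the library with the highest Paneth cell markers, 4 coactivator genes were called lower. Of 10 corepressor genes 0 were called in edgeR (0.0%, against 25.8% of all tested genes), DESeq2 or limma-voom. In edgeR 1 had an unadjusted p under 0.05 (higher), and 1 was called lower without control replicate 3. The median of the corepressor genes was −0.01 and lay between −0.08 and 0.04 in the other settings. The most abundant per length was Ncor1, with a log2 fold change of 0.20 (SE 0.12, adjusted p = 0.23).

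Of 10 genes for chaperones that hold steroid receptors ready, 2 were lower and 0 higher (20.0% called, against 25.8% of all tested genes). In edgeR 1 was higher at an unadjusted p under 0.05, and DESeq2 and limma-voom called 0 higher. In edgeR with no filter on low counts, Ppid was called higher (0.30, adjusted p = 0.043). The median was −0.21, and −0.08 without control replicate 1. The HSP90 gene Hsp90ab1 had a log2 fold change of −0.47 (SE 0.12, adjusted p = 0.021) and the cochaperone gene Dnajc7 one of −0.23 (SE 0.07, adjusted p = 0.046). The number called lower was 0 without control replicate 1 or 2 or without Klf5-KO replicate 1 or 2, 1 without Klf5-KO replicate 3 and 4 without control replicate 3.

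The profile of each called receptor over the 6 libraries was set against those of 56 tested genes, namely the other nuclear receptors, coactivators and corepressors. The measure was the root mean square difference of log2 CPM after centring each gene on its mean. Nearest to Nr1h4 was Ppargc1a, at a distance of 0.21. Nearest to Rxra was Hnf4a, at 0.15, and nearest to Rara was Ppargc1b, at 0.13. Nr3c1 was nearest to Sin3a, a corepressor gene that was itself not called (−0.21, SE 0.10, adjusted p = 0.16), at 0.09, and Esrra to the acetyltransferase gene Kat2b, which was higher (0.32, SE 0.08, adjusted p = 0.022), at 0.08. The distances describe these libraries only.

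Genes known to respond to each receptor in gut or liver, most of them by induction and some by repression, were taken as lists, so a count of higher genes in a list gives no direction for the receptor. The lists, too, were chosen with earlier results of these data known, and the shares called in them are a description only. Many of them are also genes of the mature enterocyte, and the enterocyte marker sum was 972 to 1326 CPM in control and 1775 to 3076 CPM in Klf5-KO libraries; its part in the changes below was not tested. Of the 10 FXR genes 9 were tested, 5 were higher and 2 lower (77.8% called, against 25.8% of all tested genes). The median log2 fold change was 1.72, against −0.01 over all tested genes. The 5 include Abcb11, which passed the filter on low counts only through the Klf5-KO group. With no filter all 10 were tested, 5 were higher and 3 lower, and the median was 1.34. Besides Nr0b2, Slc10a2, the gene of the apical bile acid uptake carrier, which FXR is known to repress in the mouse through SHP, rose from 0.880, 0.532 and 0.420 CPM to 2.73, 2.84 and 2.33 CPM (2.10, SE 0.29, adjusted p = 0.0010). Abcc2, the gene of an apical export pump, rose from 24.7, 54.6 and 65.8 CPM to 276, 141 and 166 CPM (2.01, SE 0.35, adjusted p = 0.0033). The genes of the basolateral bile acid carrier OSTα/β split: Slc51b rose (1.72, SE 0.30, adjusted p = 0.0033) and its partner Slc51a fell (−1.22, SE 0.27, adjusted p = 0.011). Abcc3, the gene of a basolateral pump, also fell (−0.76, SE 0.16, adjusted p = 0.0092). Abcb11, the gene of a bile salt export pump, had 0 counts in every control library and 24, 14 and 12 counts in the Klf5-KO libraries, at least 5.72-fold higher when each control library is set at a floor of 3 counts; it passed the filter on low counts only through the Klf5-KO group. Fabp6, the gene of the ileal bile acid-binding protein and a classical FXR target, had 14, 7 and 7 counts in control and 0 in every Klf5-KO library, and did not pass that filter. With no filter (adjusted p = 0.00111) and with DESeq2 (adjusted p = 0.00405) Fabp6 was called lower, which made 3 genes of the list lower, with list medians of 1.34 and 1.33. Fgf15, the hormone gene that FXR induces in the ileum, was at 0.453, 0.324 and 1.48 CPM in control and at 0.424, 0.639 and 0.456 CPM in Klf5-KO libraries (−0.56, SE 0.53, adjusted p = 0.47).

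Of 15 LXR target genes 2 were higher and 1 lower (20.0% called, against 25.8% of all tested genes), with a median of −0.24. That median was −0.04 with a filter on a CPM above 1 in 3 libraries; leaving out control replicate 3 gave −0.01 and leaving out Klf5-KO replicate 2 gave −0.07. Npc1l1, the gene of the cholesterol uptake protein of the brush border, which LXR is known to repress, rose from 34.3, 30.8 and 41.7 CPM to 103, 64.0 and 79.3 CPM (1.20, SE 0.17, adjusted p = 0.0013). Lpcat3, which remodels phospholipids, rose by a smaller amount (0.52, SE 0.08, adjusted p = 0.0021). The sterol exporter gene Abcg1, under 1 CPM in every library, was the one called lower (−1.23, SE 0.32, adjusted p = 0.022), a call lost without control replicate 2 or 3 or any Klf5-KO replicate (adjusted p = 0.053 to 0.078). Without control replicate 3 the list held 1 gene called lower. Its relative Abca1 was at 4.27, 8.001 and 9.17 CPM in control and at 7.04, 4.42 and 3.52 CPM in Klf5-KO libraries (−0.52, SE 0.31, adjusted p = 0.26).

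Of 17 PXR and CAR target genes 10 were higher and 0 lower in edgeR (58.8% called, against 25.8% of all tested genes). Their median was 1.20, while Nr1i2 and Nr1i3 themselves were not called. The cytochrome P450 gene Cyp2c55 rose from 2.43, 2.59 and 3.91 CPM to 53.4, 30 and 52.4 CPM (3.93, SE 0.26, adjusted p = 2.1e-05). Cyp2c65 rose from 12.1, 11.04 and 14.1 CPM to 71.3, 55.7 and 78.7 CPM (2.47, SE 0.15, adjusted p = 1.2e-05) and Cyp2c66 from 2.25, 1.39 and 3.05 CPM to 20.7, 11.5 and 16.1 CPM (2.86, SE 0.30, adjusted p = 2.2e-04). In all 3 the lowest library of the Klf5-KO group was replicate 2, which also had the lowest enterocyte marker sum of that group. Among other listed genes, Npc1l1, S100g and Slc30a10 were also lowest of that group in replicate 2. Nr1h4 (65.3 CPM), Cldn2 and, by a small margin, Slc10a2 were highest there. A link to enterocyte content was not tested. The Cyp2c and Cyp3a genes have near-identical neighbours and Ugt1a1 shares 58.9% of its exon bases with other genes, so their single values are uncertain. DESeq2 and limma-voom also called 0 genes of this list lower, and 0 had an unadjusted p under 0.05 in that direction. The count called higher was 8 to 11 when 1 library was left out.

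Vitamin D target genes showed 4 higher and 0 lower of 8 tested, with a median of 0.95, although Vdr itself was not called. S100g, the gene of the calcium-binding protein calbindin-D9k of the absorptive cell, rose from 4.92, 6.76 and 8.25 CPM to 117, 46.7 and 133 CPM (3.90, SE 0.37, adjusted p = 1.4e-04). Slc30a10, a manganese exporter gene, rose from 1.61, 2.31 and 3.02 CPM to 32.1, 12.1 and 34.3 CPM (3.51, SE 0.39, adjusted p = 3.2e-04). Cldn2, a tight junction gene expressed in the crypt, rose from 170, 161 and 137 CPM to 312, 345 and 290 CPM (1.02, SE 0.11, adjusted p = 2.7e-04), and the calcium pump gene Atp2b1 rose as well (1.03, SE 0.13, adjusted p = 6.4e-04). The tested genes not called in edgeR were Trpv6 (0.89, adjusted p = 0.16), Slc37a2 (0.60, adjusted p = 0.13), Cldn12 (−0.06, adjusted p = 0.69) and Slc34a2 (−0.05, adjusted p = 0.96). With no filter on low counts Trpv6 was called higher (adjusted p = 0.0499). Cyp24a1, the enzyme gene most strongly induced by vitamin D in many tissues, did not pass the filter on low counts. The 4 calls held when any 1 library was left out, and 0 genes were lower with DESeq2, with limma-voom or at an unadjusted p under 0.05 in edgeR.

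Of 22 genes of vitamin A handling 19 were tested, 5 were higher and 2 lower (36.8% called, against 25.8% of all tested genes). Their median was 0.26. Lrat, which esterifies retinol for storage, fell from 26.3, 22.5 and 23.7 CPM to 11.9, 8.68 and 12.1 CPM (−1.15, SE 0.14, adjusted p = 5.6e-04). Rbp7, the gene of a cellular retinol-binding protein, fell from 2.05, 4.202 and 4.73 CPM to 0.263, 0.187 and 0.525 CPM (−3.47, SE 0.43, adjusted p = 5.9e-04). Tgm2, a transglutaminase gene that retinoic acid induces in other cells, rose from 263, 254 and 243 CPM to 348, 407 and 366 CPM (0.56, SE 0.09, adjusted p = 0.0026). The count called higher was 3 without Klf5-KO replicate 1.

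Of 14 genes of steroid synthesis and LRH-1 targets 9 were tested, 5 were lower and 1, Nr0b2, higher. The share called was 66.7%, against 25.8% of all tested genes, and the median was −1.78. Ccnd1, the cyclin D1 gene, fell from 136, 118 and 78.7 CPM to 32.9, 30.3 and 33.8 CPM (−1.78, SE 0.18, adjusted p = 1.7e-04). Hsd11b2, whose enzyme inactivates glucocorticoids, fell from 9.15, 11 and 15.3 CPM to 2.66, 2.43 and 2.90 CPM (−2.15, SE 0.20, adjusted p = 1.3e-04). The others were Cyp11a1, Hsd3b2 and Hsd3b3, which were low or in a family of near-identical genes. Cyp11a1, under 0.5 CPM in every library, lost its call without control replicate 2 (adjusted p = 0.075), Klf5-KO replicate 2 (0.081) or Klf5-KO replicate 3 (0.064). With a filter on a CPM above 1 in 3 libraries, 6 genes of the list were tested and 2 called lower, and the list median was −0.13. The fall of stem cell markers in these libraries, given above, moved with this list, and its part was not tested.

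Of 18 glucocorticoid target genes 4 were higher and 0 lower, with a median of 0.11, which was −0.03 and 0.42 without control replicates 1 and 3, and 0.21 and 0.02 without Klf5-KO replicates 1 and 2. The share called was 22.2%, against 25.8% of all tested genes. Angptl4, a secreted lipase inhibitor gene, rose (1.16, SE 0.18, adjusted p = 0.0018), as did the signalling inhibitor gene Errfi1 (0.52, SE 0.14, adjusted p = 0.025), which missed the threshold when control replicate 2 (adjusted p = 0.055), Klf5-KO replicate 1 (0.085) or Klf5-KO replicate 3 (0.077) was left out. Lcn2, an iron-binding defence gene, was at 2.91, 1.504 and 2.65 CPM in control and at 10.9, 37.6 and 9.43 CPM in Klf5-KO libraries, with replicate 2 far above the others (3.04, SE 0.52, adjusted p = 0.0031). The classical targets Fkbp5 (0.12, SE 0.38, adjusted p = 0.84) and Tsc22d3 (0.09, SE 0.12, adjusted p = 0.59) were not called. Fkbp5 was at 51.2 CPM in control replicate 2 and 54.0 CPM in Klf5-KO replicate 2 and at 22.1 to 26.2 CPM in the other 4 libraries. The number called higher was 2 without control replicate 2 or Klf5-KO replicate 3 and 6 without control replicate 3, and 1 gene was called lower without control replicate 1 or 2. In edgeR 1 gene was lower at an unadjusted p under 0.05, and DESeq2 and limma-voom called 0 lower. With no filter on low counts, and also with the replicate number as a block, 1 gene was called lower.

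Of 18 estrogen-related receptor targets 2 were higher and 2 lower (22.2% called, against 25.8% of all tested genes), with a median of 0.00 that lay between −0.03 and 0.03 in the other settings. Cycs, the cytochrome c gene, rose from 102, 88.4 and 107 CPM to 135, 147 and 143 CPM (0.51, SE 0.09, adjusted p = 0.0043), and Pdk4, which restrains the use of glucose by mitochondria, rose from 7.57, 6.06 and 9.89 CPM to 26.3, 12.7 and 20.9 CPM (1.35, SE 0.26, adjusted p = 0.0054). Perm1 (−1.52, SE 0.37, adjusted p = 0.016) and Sdhb were lower. The number called higher was 4 without control replicate 3, and the number called lower was 0 without Klf5-KO replicate 1 or 2, 1 without control replicate 1 or Klf5-KO replicate 3 and 3 without control replicate 3.

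**Figure D5:**
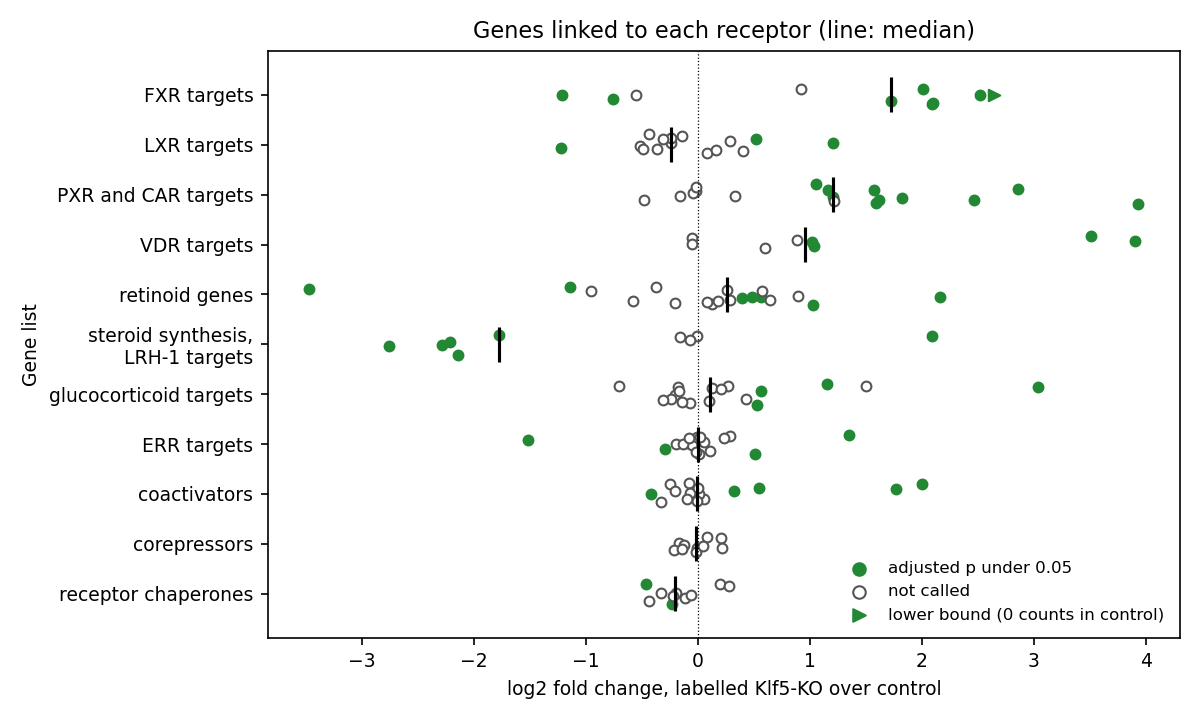
Log2 fold change (libraries labelled Klf5-KO over control) of each tested gene in the lists linked to the receptors; filled points have an adjusted p under 0.05, open points are not called, the arrow marks Abcb11 at its lower bound and black lines are list medians. The medians of the FXR (1.72, or 1.34 with no filter on low counts), PXR and CAR (1.20) and vitamin D lists (0.95) lie to the right. That of steroid synthesis and LRH-1 targets (−1.78, or −0.13 with a CPM above 1 in 3 libraries) lies to the left, and those of the coregulators near 0.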

How the data were processed

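Whole-transcriptome libraries of total RNA were made with a stranded kit after removal of ribosomal RNA, per the labels' protocols. The deposited values are read counts per gene, not normalized. The submitters' processing notes name STAR 2.5.2a, the build mm10 and DESeq2 1.18.1. Per the file headers, the counts come from featureCounts 1.4.3-p1, run by the authors with strand setting 2 against GENCODE vM16, so antisense reads were counted apart. Symbols came from GENCODE vM21, which matched 53274 of 53379 gene IDs and all 10 receptors.

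Testing used edgeR 4.0.16 (R 4.3.3): filterByExpr left 19339 genes, TMM factors scaled the libraries, and group differences were taken from quasi-likelihood F tests, with Benjamini-Hochberg adjustment across those genes and a threshold of 0.05. The SE is the size of the log2 fold change over the square root of F. CPM uses TMM-scaled library sizes and RPKM divides it by exon length in the files. The biological coefficient of variation was 17.0%. Where a gene has 0 counts, its level may be as high as 0.0389 to 0.0484 CPM, depending on the library (3 counts, counting error only). All pairs of libraries differed by more than sampling noise, with a chi-square of 40.3 or more per degree of freedom. The test was tried on simulated counts.

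The receptors and gene lists were chosen with earlier results of these data known. The named genes are the receptors, Klf5, up to 3 called genes per list with the smallest adjusted p and a mean of at least 1 CPM (the most abundant where none was called) and the nearest profiles; other list genes were named after their values were seen. The 16 other settings were scaling by RLE or by the upper quartile, leaving out mitochondrial, rRNA-like and small structural RNAs, no filter, a CPM above 1 in 3 libraries, sex as a covariate, a replicate block, robust dispersion, DESeq2 1.42.0, limma-voom (limma 3.58.1) and leaving out each library. Sex was read from the counts of Xist and of Y-linked genes.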

Additional observations from a re-analysis of the deposited data

How the results depend on the processing

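The number of receptors called higher, 2, was 1 with upper-quartile scaling and 1 with sex as a covariate; in each case Esrra was lost. When 1 library was left out it ran from 1 to 3, and the number called lower from 2 to 3; over all genes these ranges were 1605 to 2740 higher and 1467 to 2664 lower. Leaving a group with 2 libraries means fewer samples in the fit. With DESeq2 or with no filter 4 receptors were called lower, Nr1i3 being added. Nr1h4, Rxra and Rara kept direction and call in all 16 settings, and Vdr, Nr5a2 and Nr1i2 were called in none. The sign of Nr1i2 turned without control replicate 3, to 0.0066 (adjusted p = 0.956), in a range of −0.084 to 0.0066 over the libraries left out; the cause was not tested. Scaling moved the median of all genes by less than 0.03 on the log2 scale. By CPM in place of RPKM, the order of levels put Nr3c1 at place 2, Esrra at 3 and Nr1i2 at 6. Adding the replicate number as a block gave 1 receptor higher (the adjusted p of Esrra was 0.058) and 3 lower, and 2286 genes higher and 2088 lower over all. The numbers did not pair the libraries: the correlations of same-numbered deviations were −0.026, 0.024 and −0.040. The calls of Esrra and Nr3c1 were lost when any library other than control replicate 3 was left out.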
